A study of Mus musculus with 4 samples.

Results

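The ER stress and amino acid response was described here as 36 genes, taken by symbol from the 21878 genes of a count table of mouse macrophages. The members formed an ATF4 and amino acid arm of 14 genes and an ER chaperone and sensor arm of 22 genes. All 36 were present in the table, and all 36 were among the 12494 genes with enough counts to be tested. The RNA came from bone marrow-derived macrophages of C57BL/6 mice, aged 8 weeks by the labels, and every culture had been kept with MC38 cells, a mouse colon cancer line. The labels give 48 h of coculture, while the study's own text gives a shorter time for the same sequencing and a wider range of ages. In 2 libraries the macrophages carried the wild type genotype (WT), and in 2 libraries they came from anti-Act1 mice, which the study describes as having a macrophage-specific knockdown of Act1, the adaptor of the IL-17 receptor. The promoter that drives the knockdown is not given in the sources used here, the cancer cells were separated from the macrophages by a porous insert, and no library was made from macrophages without MC38 cells. Each group therefore had 2 biological replicates, and the comparison asked which members differed between anti-Act1 and WT macrophages under the same coculture.

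Cells meet a shortage of amino acids or misfolded protein in the endoplasmic reticulum (ER) by several routes. Stress kinases phosphorylate the translation factor eIF2, which slows protein synthesis in general but favours translation of ATF4, a transcription factor that raises genes for amino acid synthesis, amino acid import and the control of cell death. The ER kinase PERK feeds into this route, and so does GCN2, which senses uncharged tRNA, so ATF4 targets can rise without stress inside the ER. The other ER sensors, IRE1 and ATF6, act through the transcription factors XBP1 and cleaved ATF6 on chaperones, disulfide isomerases and the machinery that removes misfolded proteins. ATF4, XBP1 and ATF6 are all controlled after transcription, so an mRNA level is not a measure of their activity.

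The libraries held 55435063 to 75062945 counts. Traf3ip2, the gene of Act1, was measured first, in CPM (counts scaled to library size). The WT label stood on libraries with 6.98 and 7.54 CPM and the anti-Act1 label on libraries with 9.63 and 7.84 CPM, and the log2 fold change was 0.27 ± 0.12 (SE), with an edgeR adjusted p of 0.117. Both libraries labelled anti-Act1 thus stood above both labelled WT, and the table did not show the knockdown. WT and anti-Act1 below therefore name the labels of the libraries. In a separate experiment, the study reports reduced Act1 in bone marrow-derived macrophages of anti-Act1 mice. The libraries were not stated to keep strand, so reads from a gene and from an antisense transcript cannot be told apart. Ddx3y, a Y-linked gene, had 5741 and 7360 counts in WT replicates 1 and 2 but 0 counts in both anti-Act1 replicates, and Uty and Kdm5d were split in the same way, so a Y chromosome and the genotype label cannot be told apart in any comparison below. Macrophage markers were abundant, with a summed level of 25147 to 26894 CPM over 9 genes, 2 of which were called higher and 2 lower. The 9 markers of epithelial tumour cells summed to 0.330 to 0.898 CPM, and Krt8, Krt18, Krt20 and Cldn4 were at 0 in every library. The lists for fibroblasts, T cells, B and plasma cells, dendritic cells and erythroid cells summed to between 0.453 and 5.31 CPM in every library and held no gene past the threshold. Neutrophil genes summed to 6.75 to 7.77 CPM, with 1 of 6 tested genes higher and 2 lower, and cell cycle genes to 167 to 183 CPM, with 2 of 10 lower. In either direction, 44.4% of macrophage, 50% of tested neutrophil and 20% of cell cycle genes were called. Of all genes tested, 20.7% were called (edgeR adjusted p under 0.05). In bulk RNA, fewer cells of a type and less RNA per cell cannot be told apart.

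Promoter sequences of both arms are shown as a description. The arms were listed by known regulators and roles, so matches to the DNA elements of those regulators are no independent support for the split. Promoter windows, from 250 bases before to 50 bases after the transcription start (RefSeq, GRCm38.p6), were at hand for 32 of the 36 members, and not for Atf6, Hyou1, Manf and Slc7a5. The ER stress element, a site of ATF6 and XBP1, reads CCAAT, any 9 bases and CCACG. It was found on either strand in 8 of the 19 ER arm genes with a window and in 0.137% of all 27025 such genes. Its relative, element II (ATTGG, any base, CCACG), was found in 2 others, Dnajb11 and Herpud1, against 0.0444% of all genes with a window. Neither was found in the 13 ATF4 arm genes with a window. The element bound by ATF4 with its partners was searched as TGATGNAA. It lay in 3 of those 13 genes (Trib3, Chac1 and Asns) and in 1 of the 19 of the ER arm (Herpud1). Among all genes with a window the share was 4.51%. The UPR element TGACGTGG was in 0 members with a window and in 0.714% of all genes with a window. No site overlapped another site. These are matches of letters and not measured binding. Sites are given in the direction of the motif with 5 bases on each side, and capitals mark the fixed letters of the motif. The ER stress elements of Hspa5, Hsp90b1 (2 sites), Pdia6, Calr and Creld2 and element II of Herpud1 were these.
Hspa5, chr2:34772020-34772048, plus strand: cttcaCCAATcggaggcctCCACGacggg
Hsp90b1, chr10:86705528-86705556, plus strand: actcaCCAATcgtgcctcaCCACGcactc
Hsp90b1, chr10:86705633-86705661, minus strand: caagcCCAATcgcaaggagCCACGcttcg
Pdia6, chr12:17266486-17266514, plus strand: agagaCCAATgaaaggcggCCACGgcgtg
Calr, chr8:84847070-84847098, plus strand: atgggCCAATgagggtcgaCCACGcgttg
Creld2, chr15:88819515-88819543, minus strand: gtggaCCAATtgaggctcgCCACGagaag
Herpud1, chr8:94386372-94386392, plus strand: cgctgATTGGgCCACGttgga

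The ATF4 elements of the members were the following, and that of Trib3 began at base 15 of the transcribed part while the others lay before the start.
Trib3, chr2:152344034-152344051, plus strand: ccggcTGATGtAAacctg
Chac1, chr2:119351044-119351061, minus strand: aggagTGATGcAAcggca
Asns, chr6:7693220-7693237, minus strand: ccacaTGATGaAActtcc
Herpud1, chr8:94386312-94386329, minus strand: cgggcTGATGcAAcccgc

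The whole stretch of 250 bases before the start is printed for 1 gene of each arm, Hspa5 and Asns, each read in the direction of its gene with capitals marking the same fixed letters.
Hspa5, chr2:34771840-34772089, plus strand: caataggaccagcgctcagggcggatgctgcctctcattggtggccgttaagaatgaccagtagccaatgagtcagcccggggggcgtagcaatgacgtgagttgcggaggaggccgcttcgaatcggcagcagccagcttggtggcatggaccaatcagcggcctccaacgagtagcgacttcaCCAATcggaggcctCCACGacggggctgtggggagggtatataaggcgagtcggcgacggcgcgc
Asns, chr6:7693210-7693459, minus strand: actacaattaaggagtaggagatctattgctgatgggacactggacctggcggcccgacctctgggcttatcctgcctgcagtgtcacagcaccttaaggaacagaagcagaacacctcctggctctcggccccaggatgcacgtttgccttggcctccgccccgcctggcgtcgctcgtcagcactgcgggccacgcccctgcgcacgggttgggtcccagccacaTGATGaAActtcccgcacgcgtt

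In the ATF4 arm, 8 of 14 genes had higher levels in anti-Act1 than in WT libraries (Trib3, Ppp1r15a, Ddit3, Asns, Mthfd2, Atf4, Sesn2 and Slc7a5), 1 was lower (Psat1) and 5 did not pass the test. Calls rest on edgeR's quasi-likelihood test with an adjusted p under 0.05, which was reached in the higher direction by 10.9% and in the lower direction by 9.76% of all genes tested. The median log2 fold change of the arm was 0.49, and that of all genes tested was close to 0, at -0.0046. In 11 of the 14 genes both libraries labelled anti-Act1 lay above both labelled WT, and in 1 gene they lay below, against 28.4% and 28.7% of all genes tested. DESeq2 called 7 of the 14 higher and 0 lower.

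The regulators moved by a factor of 1.22 to 1.86 where they were called. Atf4 itself, the transcription factor at the head of the arm, had 162 and 155 CPM in WT against 192 and 196 CPM in anti-Act1 libraries, and this log2 difference of 0.29 ± 0.05 (SE) had an edgeR adjusted p of 1.96e-05. Trib3, a pseudokinase induced by ATF4 that in turn restrains it, was at 12.4 and 14.1 CPM in WT and at 23.6 and 25.8 CPM in anti-Act1 (log2 fold change 0.90 ± 0.08, adjusted p = 6.09e-12). It had the largest difference among the called genes of the arm, and its libraries did not overlap. Ddit3, which encodes CHOP, a transcription factor of stress-induced death, was at 42.3 and 38.6 CPM in WT and at 56.7 and 57.2 CPM in anti-Act1 (log2 fold change 0.50 ± 0.06, adjusted p = 1.80e-08). Its exons share 68 bases with Mars on the opposite strand. Ppp1r15a, the subunit (GADD34) that directs a phosphatase to eIF2 and so restores translation, was at 52.7 and 55.1 CPM in WT and at 76.5 and 76.8 CPM in anti-Act1 (0.51 ± 0.06, adjusted p = 1.53e-09). Its exons share 12 bases with Tulp2 on the opposite strand. Sesn2, a stress-induced leucine sensor that restrains mTORC1, was at 59.5 and 58.9 CPM in WT and at 73.2 and 73.7 CPM in anti-Act1 (0.31 ± 0.06, adjusted p = 3.65e-05). In each of these 5 genes the gap between the groups was wider than the spread within them. Chac1, which degrades glutathione, had only 12 and 14 counts in WT and 24 and 20 counts in anti-Act1, so its log2 fold change of 1.02 ± 0.56 had a 95% interval of -0.11 to 2.15 and did not pass the test (adjusted p = 0.212). Atf4, Trib3, Ddit3, Ppp1r15a, Sesn2 and Asns were past the threshold in each of the 14 alternative analyses.

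**Figure D1:**
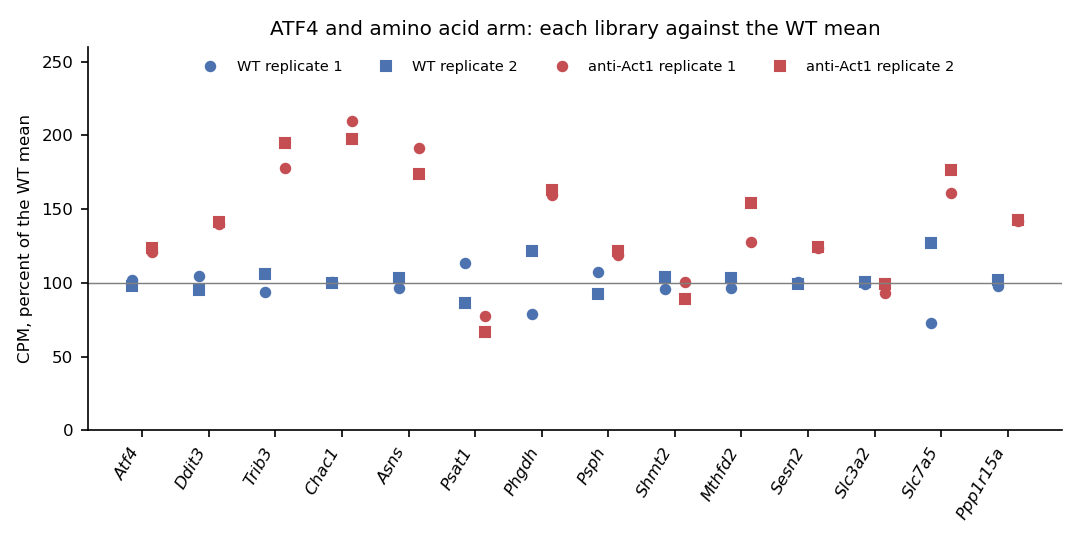
CPM of each library as a percent of the mean of the 2 WT libraries (vertical axis, starting at 0) for the 14 genes of the ATF4 and amino acid arm, with circles for replicate 1, squares for replicate 2, blue for libraries labelled WT and red for those labelled anti-Act1. The red points lie above both blue points in 11 genes, below them in Psat1, and among them in Shmt2 and Slc3a2.

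The enzymes of the arm did not move as 1 block. Asns, asparagine synthetase, was at 3.58 and 3.81 CPM in WT and at 7.08 and 6.43 CPM in anti-Act1 (0.87 ± 0.14 on the log2 scale, edgeR adjusted p = 4.98e-06). Mthfd2, a mitochondrial enzyme of folate metabolism, was at 14.8 and 15.9 CPM in WT and at 19.6 and 23.7 CPM in anti-Act1 (0.49 ± 0.09, adjusted p = 1.80e-05). Both genes rose, and for both the lower anti-Act1 library was above the higher WT library. Psat1, the aminotransferase in the middle of the pathway from a glycolytic intermediate to serine, went the other way, with 4.98 and 3.81 CPM in WT and 3.40 and 2.93 CPM in anti-Act1 (-0.47 ± 0.17, adjusted p = 0.0402). This call was lost without WT replicate 1 (log2 fold change -0.27, adjusted p = 0.427), without anti-Act1 replicate 2 (-0.36, adjusted p = 0.239) and in DESeq2 (adjusted p = 0.176). The enzymes on either side of Psat1 in the same pathway were not called. Phgdh, the first enzyme, had 16 and 29 counts in WT and 31 and 28 in anti-Act1 (0.67 ± 0.48, adjusted p = 0.365), and 8 near-identical pseudogenes make its counts uncertain. Psph, the last enzyme, was at 6.18 and 5.34 CPM in WT and at 6.83 and 7.01 CPM in anti-Act1 (0.27 ± 0.13, adjusted p = 0.151). Its exons share 452 bases with Cct6a on the opposite strand, so its counts are uncertain as well. Shmt2, which moves a carbon unit from serine to folate in mitochondria, had overlapping groups (log2 fold change -0.08, 95% interval -0.24 to 0.09).

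Slc7a5 and Slc3a2 encode the light and the heavy chain of the importer LAT1 for large neutral amino acids. Slc3a2, whose product also pairs with other light chains, was at 492 and 501 CPM in WT and at 464 and 492 CPM in anti-Act1, with a 95% interval of the log2 fold change of -0.16 to 0.05. Slc7a5 was scarce, with 73 and 149 counts in WT and 154 and 149 in anti-Act1, or 1.13, 1.96, 2.49 and 2.73 CPM in this order. Its log2 fold change was 0.74 ± 0.23 (edgeR adjusted p = 0.0163), and WT replicate 1 stood apart from the other 3 libraries. Without that library the value was 0.41 (adjusted p = 0.303), without anti-Act1 replicate 2 it was 0.68 (adjusted p = 0.0790), and DESeq2 gave an adjusted p of 0.106.

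The ER arm looked different. Hspa5 was the only one of its 22 genes called higher, 0 were called lower and 21 did not pass the test, against 20.7% of all genes tested called in either direction. All 22 log2 fold changes were within 0.2 of 0, their median was 0.04, and the 95% intervals of the genes not called ran from a fold of 0.869 to a fold of 1.26. An unadjusted p under 0.05 in edgeR was reached by 4 genes with higher values and by 0 with lower values. The share of all genes tested at that threshold was not counted, so neither an excess nor a shortfall can be read from this. DESeq2 also called 1 higher and 0 lower, and limma on the FPKM values called 0 in either direction. Both libraries labelled anti-Act1 lay above both labelled WT in 10 genes and below in 1, against 28.4% and 28.7% of all genes tested, and the groups overlapped in 11. Counts were ample, with the SE of the log2 fold change between 0.050 and 0.082 in every gene of this arm.

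Of the sensors, none passed the test. Ern1, which encodes the kinase and nuclease IRE1, was at 64.7 and 64.9 CPM in WT and at 70.7 and 71.7 CPM in anti-Act1 (0.14 ± 0.06 on the log2 scale, edgeR adjusted p = 0.0832). Eif2ak3, which encodes the eIF2 kinase PERK, was at 43.1 and 41.4 CPM in WT and at 38.5 and 41.8 CPM in anti-Act1 (-0.07 ± 0.06, adjusted p = 0.483). Atf6, the membrane-bound factor that is cleaved on stress, was at 154 and 161 CPM in WT and at 146 and 149 CPM in anti-Act1 (-0.10 ± 0.05, adjusted p = 0.201). The groups did not overlap in Ern1 and Atf6, in opposite directions, and overlapped in Eif2ak3. Xbp1, the factor whose mRNA is spliced by IRE1, was at 184 and 179 CPM in WT and at 187 and 185 CPM in anti-Act1 (0.03 ± 0.05, adjusted p = 0.704). Counts per gene do not separate its spliced from its unspliced form.

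Hspa5, which encodes BiP, the HSP70 chaperone that holds the sensors inactive, was at 363 and 368 CPM in WT and at 403 and 409 CPM in anti-Act1, a fold of 1.11 (log2 fold change 0.15 ± 0.05, edgeR adjusted p = 0.0247). Its 95% interval was 0.05 to 0.25, and its groups did not overlap. The call was lost without WT replicate 1 (log2 fold change 0.14, adjusted p = 0.0735), without anti-Act1 replicate 1 (0.17, adjusted p = 0.106), without anti-Act1 replicate 2 (0.14, adjusted p = 0.199), with library totals alone as scaling (0.13, adjusted p = 0.0653) and in all 3 limma analyses of FPKM (0.12 to 0.13, adjusted p = 0.0829 to 0.0992). It was called in 6 of the 14 alternatives, and its direction was the same in all 14. The other chaperones and cochaperones of the ER lumen gave log2 fold changes of 0.02 to 0.11. Among them, Dnajb9, a cochaperone of BiP, was at 50.1 and 57.8 CPM in WT and at 58.5 and 57.7 CPM in anti-Act1 (0.11 ± 0.06, adjusted p = 0.256), and without WT replicate 2, its higher WT library, it was called (0.21, adjusted p = 0.0201). Hyou1, a large relative of HSP70 and an exchange factor of BiP, was at 79.8 and 83.7 CPM in WT and at 84.3 and 87.5 CPM in anti-Act1 (0.07 ± 0.06, adjusted p = 0.422). Hsp90b1, the ER member of the HSP90 family, had a 95% interval of -0.07 to 0.13, Dnajb11 one of -0.07 to 0.15, Dnajc3 one of -0.09 to 0.13 and Sdf2l1 one of -0.07 to 0.25.

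**Figure D2:**
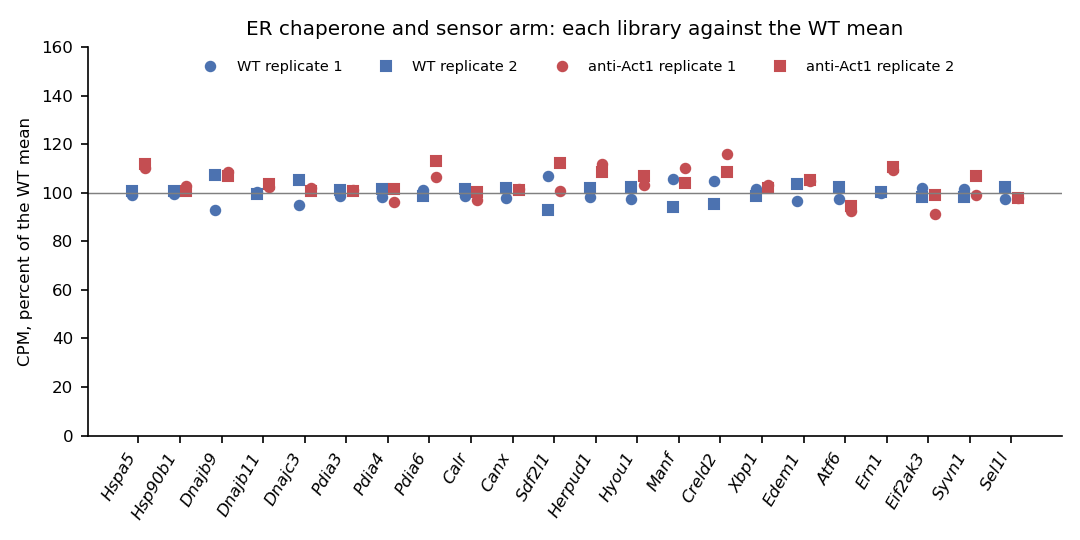
CPM of each library as a percent of the WT mean (vertical axis, starting at 0) for the 22 genes of the ER chaperone and sensor arm, with the same symbols and colours as for the ATF4 arm. The red points lie near 100 throughout, and Hspa5 is the only gene that passed the test.

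The lectin chaperones, the disulfide isomerases and the disposal genes gave differences of the same small size. Pdia6, a disulfide isomerase, was at 110 and 107 CPM in WT and at 116 and 123 CPM in anti-Act1 (0.14 ± 0.05, edgeR adjusted p = 0.0651), and its exons share 50 bases with Atp6v1c2 on the opposite strand. The isomerases Pdia3 and Pdia4 and the lectin chaperones Calr and Canx, which hold glycoproteins while they fold, gave log2 fold changes of -0.02 to 0.02, with 95% intervals inside -0.13 to 0.12. Creld2, a secreted stress protein, was at 19.5 and 17.8 CPM in WT and at 21.6 and 20.2 CPM in anti-Act1 (0.17 ± 0.08, adjusted p = 0.145). Manf, a secreted survival factor kept partly in the ER, was at 40.8 and 36.3 CPM in WT and at 42.4 and 40.0 CPM in anti-Act1 (0.10 ± 0.07, adjusted p = 0.332), so its groups overlapped. Of the genes that send misfolded proteins out of the ER for degradation, Herpud1 was at 16.4 and 17.0 CPM in WT and at 18.6 and 18.1 CPM in anti-Act1 (0.14 ± 0.08, adjusted p = 0.253). Edem1, a lectin of the same route, was at 267 and 286 CPM in WT and at 289 and 291 CPM in anti-Act1 (0.07 ± 0.05, adjusted p = 0.381). Syvn1, the ubiquitin ligase, and Sel1l, its partner, had overlapping groups, with 95% intervals of -0.08 to 0.16 and -0.14 to 0.07.

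**Figure D3:**
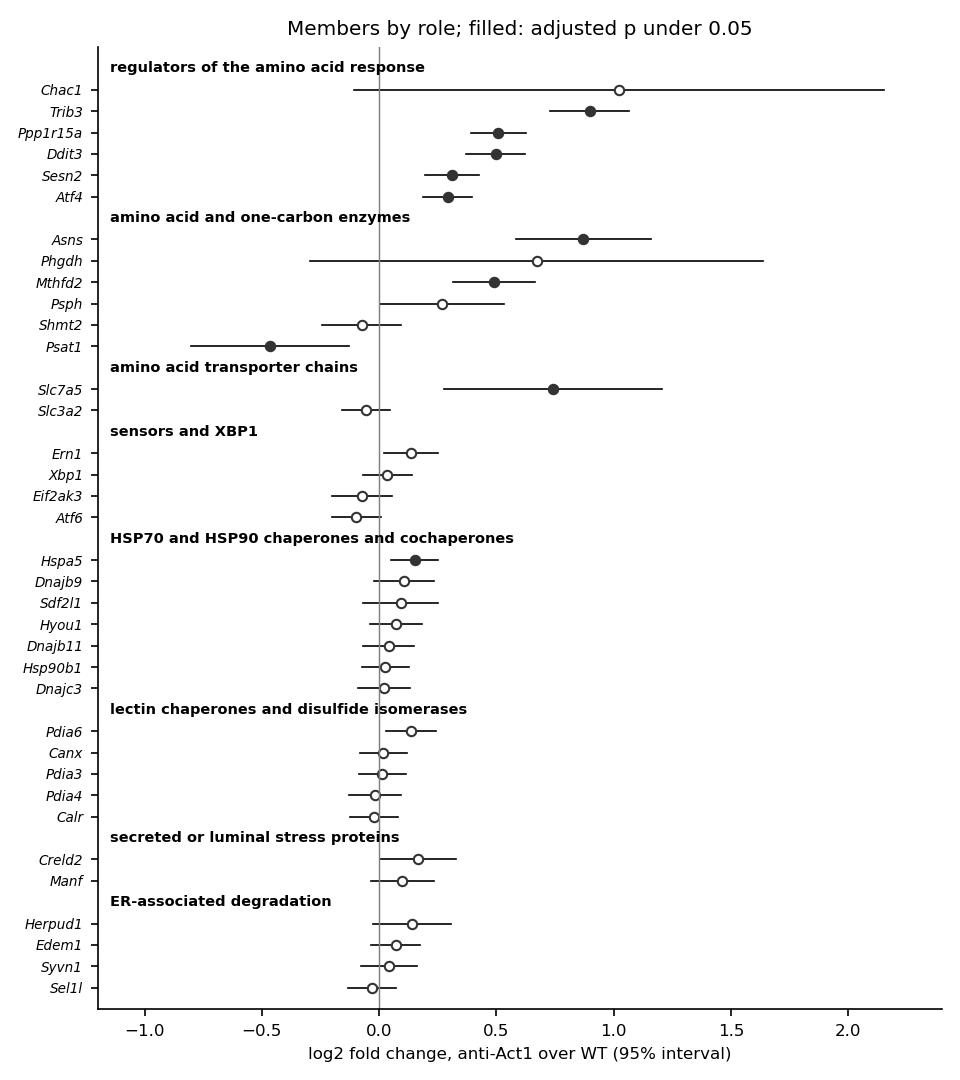
Log2 fold change of anti-Act1 over WT (horizontal axis) with its 95% interval for all 36 members by role, from the edgeR model, with filled points for an adjusted p under 0.05. The filled points are 9 genes of the ATF4 arm and Hspa5, and the widest intervals are those of Chac1 and Phgdh.

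The members were also set against each other by level, which is comparable between genes only per length. In the libraries labelled WT the ATF4 arm ran from 0.119 FPKM (Chac1) to 178 FPKM (Slc3a2), with a median of 6.80, and 3 genes, Chac1, Phgdh and Slc7a5, were under 1 FPKM. The ER arm ran from 8.18 FPKM (Herpud1) to 154 FPKM (Calr), with a median of 29.9. Atf4, at 101 FPKM, was among the abundant members, and Ddit3 was at 32.8 FPKM, Trib3 at 6.51 FPKM and Asns at 1.87 FPKM. Among the 11 genes of the ATF4 arm at 1 FPKM or more, 7 were higher, 1 was lower and 3 were not called, with a median log2 fold change of 0.31, so the median of the arm was smaller without its scarcest genes.

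**Figure D4:**
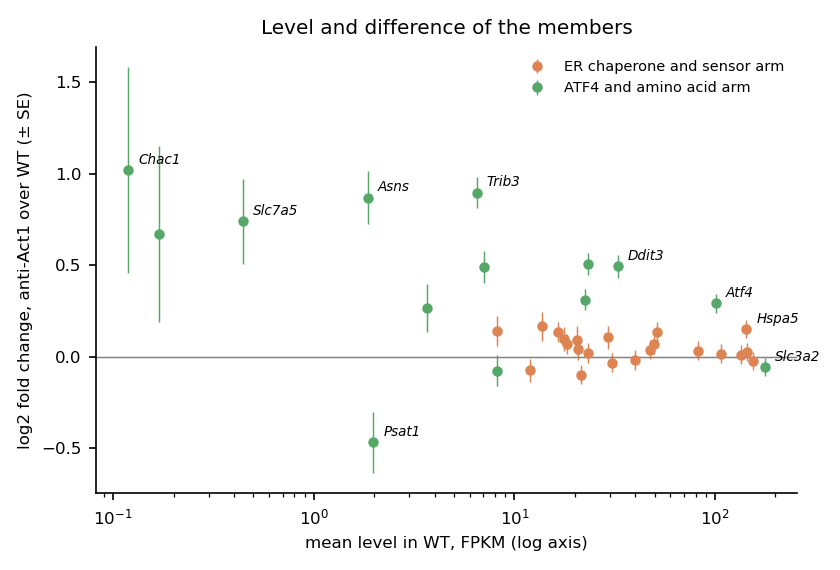
Log2 fold change of anti-Act1 over WT with its SE (vertical axis) against the mean level in the WT libraries (FPKM, log axis) for the 36 members, green for the ATF4 arm and orange for the ER arm. The green points with large differences lie mostly at 32.8 FPKM or less, Atf4 at 101 FPKM is at 0.29, and the orange points stay within 0.2 of 0.

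The promoter elements can be read beside these values, as a description. The 3 genes of the ATF4 arm with an ATF4 element in the window had log2 fold changes of 0.87 to 1.02, and 2 were called higher. The value of 1.02 was that of Chac1, which had at most 24 counts in a library and did not pass the test. The 10 with a window but no such match had values of -0.47 to 0.67, of which 5 were called higher and 1 lower. Among all genes tested, 10.9% were called higher and 9.76% lower. The 10 genes of the ER arm with either ER stress element had log2 fold changes of -0.02 to 0.17 and a median of 0.04, and the 9 with a window and neither element had values of -0.07 to 0.14 and a median of 0.03. Herpud1, which carries both kinds of element, was at 0.14.

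Further genes of both pathways were taken from lists. Of 25 other ATF4 targets, 23 were tested and Cth and Fgf21 were at 0 counts in all libraries. In this list 12 genes rose, 1 fell and 10 did not pass the test, and the median log2 fold change was 0.52. The share called higher was 52.2%, beside 10.9% of all genes tested. Aldh1l2, a mitochondrial folate dehydrogenase, had the largest rise, from 0.588 and 0.949 CPM in WT to 2.56 and 2.14 CPM in anti-Act1 (1.60 ± 0.27 on the log2 scale, edgeR adjusted p = 9.89e-06). Vldlr, a lipoprotein receptor, was at 8.27 and 8.43 CPM in WT and at 18.7 and 18.8 CPM in anti-Act1 (1.17 ± 0.09, adjusted p = 5.02e-14). Stc2, a secreted glycoprotein, was scarce, at 0.619 and 0.580 CPM in WT and at 1.34 and 1.04 CPM in anti-Act1 (1.00 ± 0.34, adjusted p = 0.0318), and its call was lost in DESeq2 (adjusted p = 0.119), without WT replicate 1 (0.0841), without WT replicate 2 (0.143) and without anti-Act1 replicate 1 (0.296). The gene that fell was Cebpb, a partner of ATF4 on DNA, at 351 and 212 CPM in WT and at 170 and 133 CPM in anti-Act1 (-0.89 ± 0.10, adjusted p = 1.09e-09), with a wide spread between its WT libraries. Leaving out WT replicate 1 moved the value to -0.48 and leaving out WT replicate 2 moved it to -1.21, and DESeq2 gave the same direction with an adjusted p of 0.120. Promoter windows were at hand for 20 of the 25 genes, and 8 of these genes had the ATF4 element in a window. Of those genes 7 were tested, and their log2 fold changes ran from -0.17 to 1.17, with 4 called higher. The rest of the 12 genes called higher, Aldh1l2 and Stc2 among them, had no match or no window.

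Of the 20 cytosolic aminoacyl-tRNA synthetases, several of which ATF4 can raise, 3 were higher and 17 were not called. The share called higher was 15%, beside 10.9% of all genes tested, and the median log2 fold change was 0.01. The 3 were Cars (0.28 ± 0.07, edgeR adjusted p = 0.00163), Aars (0.20 ± 0.06, adjusted p = 0.00676) and Sars (0.17 ± 0.05, adjusted p = 0.0155). They charge the tRNAs of cysteine, alanine and serine. Of the 14 alternatives, Cars was called in 13, Aars in 9 and Sars in 8. Without anti-Act1 replicate 2, Aars (adjusted p = 0.0984) and Sars (0.213) were not called, Aars was not called without WT replicate 1 (0.0646), and Sars was not called without WT replicate 2 (0.143) or anti-Act1 replicate 1 (0.0519). The other listed genes of the eIF2 step (kinases, a subunit of eIF2, a phosphatase subunit and the exchange factor eIF2B, 10 in all) gave log2 fold changes of -0.08 to 0.07. In edgeR, 0 of them were called, beside 20.7% of all genes tested called in either direction. An unadjusted p under 0.05 was reached by 0 of them, a threshold at which all genes were not counted. Eif2s3y, a Y-linked gene of an eIF2 subunit, was not in this list. It had 4367 and 5546 counts in WT replicates 1 and 2 and 1 and 0 counts in anti-Act1 replicates 1 and 2.

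On the ER side, 4 of 24 other folding enzymes were higher and 1 was lower, with a median log2 fold change of 0.07. The share called in either direction was 20.8%, beside 20.7% of all genes tested. The share called higher was 16.7%, beside 10.9%. Ero1l, the oxidase that recharges disulfide isomerases, was at 522 and 581 CPM in WT and at 1093 and 1044 CPM in anti-Act1 (0.95 ± 0.05, edgeR adjusted p = 1.18e-19). The next largest value in the list was that of Fkbp11, a prolyl isomerase with 26, 11, 42 and 15 counts in WT and anti-Act1 libraries in this order, which did not pass the test (0.85 ± 0.53, adjusted p = 0.294). Dnajc1 (0.30 ± 0.06, adjusted p = 5.77e-05), P4hb, a disulfide isomerase at 305 FPKM in WT (0.28 ± 0.05, adjusted p = 2.10e-05), and Uggt1, which checks the folding of glycoproteins (-0.22 ± 0.05, adjusted p = 0.00213), moved less. The list of other ER-associated degradation genes had 1 call in 21, or 4.76%, which was Edem2 (0.30 ± 0.05, adjusted p = 1.28e-05). ER translocation and signal peptidase had 2 higher calls in 19 (Sec11c at 0.25 and Srpr at 0.21), and ER export and retrieval had 2 in 16 (Surf4 and Kdelr2, both at 0.17), shares of 10.5% and 12.5% beside the 10.9% of all genes tested that were called higher. Among the 8 genes of ATF6 relatives and their processing, Mbtps1, whose product is a protease that cleaves ATF6, was lower (-0.17 ± 0.06, adjusted p = 0.0272). The other 7 were not called, so the share called was 12.5%. Of the 6 listed substrates of IRE1-dependent mRNA decay, 4 were tested, and Hgsnat was lower (-0.17 ± 0.05, adjusted p = 0.0161), a share called of 25%. The other 3 had positive values that did not pass the test, with log2 fold changes of 0.18 for Bloc1s1 (adjusted p = 0.105), 0.54 for Pdgfrb (0.156) and 0.65 for Sparc (0.558), and the median of the 4 was 0.36. Of the 14 alternatives, Uggt1 and Srpr were each called in 12, Hgsnat in 11 and Surf4 in 9. Several of these smaller differences rested on single libraries. Uggt1 and Srpr were not called without anti-Act1 replicate 1 (adjusted p = 0.109 and 0.0623). Surf4 was not called without WT replicate 2 (0.0629) or anti-Act1 replicate 2 (0.264), and Hgsnat not without WT replicate 1 (0.0749) or anti-Act1 replicate 1 (0.234) or 2 (0.0718). Of the 4 analyses with a library left out, Mbtps1 was called only in the one without WT replicate 1 and Kdelr2 only in the one without WT replicate 2, with adjusted p values in the others of 0.0768 to 0.329 and 0.143 to 0.288. DESeq2 called neither (Mbtps1, adjusted p = 0.0502; Kdelr2, 0.105), and over all 14 alternatives Mbtps1 was called in 9 and Kdelr2 in 4.

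**Figure D5:**
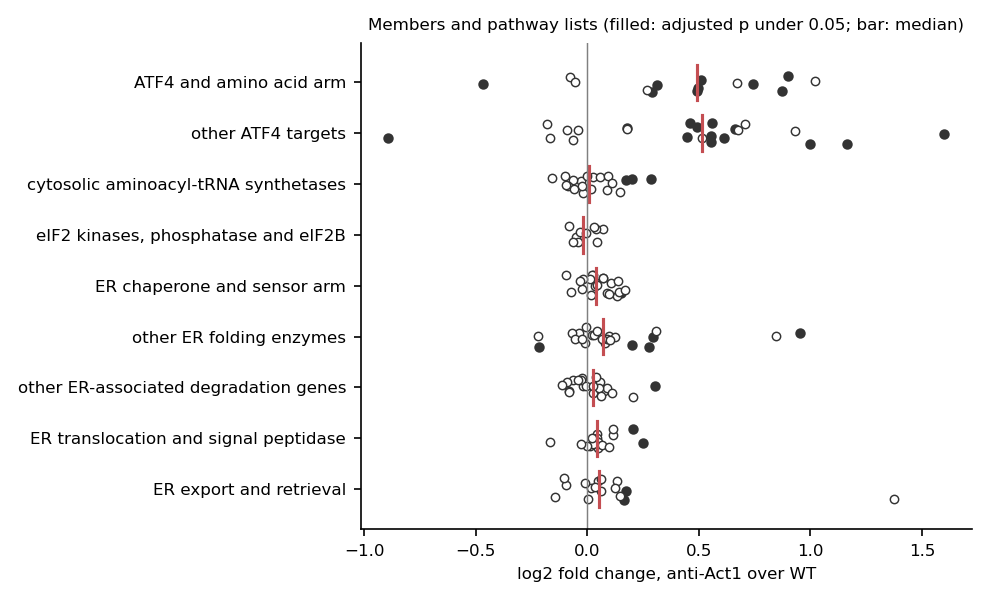
Log2 fold change of anti-Act1 over WT (horizontal axis) for every tested gene of both arms and of 7 further lists, with filled points for an edgeR adjusted p under 0.05 and a red bar at the median of each list. The ATF4 arm and the other ATF4 targets have medians of 0.49 and 0.52, and the medians of the other lists lie between -0.02 and 0.07.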

How the data were processed

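Total RNA of 4 libraries (2 labelled WT, 2 labelled anti-Act1) was sequenced as read pairs, and the authors filtered the reads and aligned them with TopHat. The submitters' processing notes list HTSeq 0.6.1 and name the builds mm8 and mm10 without a role. The deposited table holds the authors' counts per gene, whole and not normalized, and a further deposited table holds the authors' FPKM. Low counts were mostly even (66.4% to 68.2% of counts of 1 to 20), so both reads of a pair may have been counted. The members and lists were chosen with earlier results of these data known.

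Counts were tested in edgeR 4.0.16 (R 4.3.3) with TMM scaling, filterByExpr, a model of genotype alone, the two-sided quasi-likelihood F test and Benjamini-Hochberg adjustment over the 12494 genes tested, at a threshold of 0.05. CPM are scaled by TMM, SE and 95% intervals come from the same model, and levels are means of the FPKM. The p-values rest on 2 libraries a group, with the spread of each gene drawn towards a trend over all genes. They do not measure the spread of that gene alone. An exact two-sided permutation test of a single value could not go below 0.333. Alternatives were DESeq2 1.42.0, other scalings and filters, limma 3.58.1 on log2(FPKM + 1) and log2(FPKM + 0.1), each library left out in turn, a replicate block and, added after the data were seen, counts divided by 2. The tests were checked on simulated counts. Values in every library are given for Atf4, Ddit3, Hspa5, Xbp1, Atf6, Ern1 and Eif2ak3 and for the 10 genes of each arm with the smallest adjusted p, further members are named by role, and at most 4 called genes are named from each pathway list. Overlapping exons were found in GENCODE M21, in 8 members, and near-identical copies by alignment of at least 300 bases at 95% identity or more.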

Additional observations from a re-analysis of the deposited data

How the results depend on the processing

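Of the 14 alternatives, the count of ATF4 arm genes called higher was 7 or 8 in each, and the count of ER arm genes called lower was 0 in each. In no alternative did a called member, or a called pathway gene named in the text, change direction. Named pathway genes that were not called were not followed across the alternatives. The gene of the ATF4 arm called lower (Psat1) was lost, giving 0, in DESeq2 and in all 3 limma analyses, and the count was 0 to 1 when a library was left out. The gene of the ER arm called higher (Hspa5) was lost, giving 0, with library totals alone and in all 3 limma analyses, and the count was 0 to 2 when a library was left out. The replicate numbers are shared only as numbers, since deviations of same-numbered libraries from their group means had a correlation across genes of -0.030. With the replicate block, 0 genes of the ER arm were called higher (Hspa5, edgeR adjusted p = 0.0602), and no other call among the members changed.

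The median log2 fold change of the ATF4 arm was 0.47 with library totals alone, 0.28 in limma on log2(FPKM + 1), 0.29 on log2(FPKM + 0.1), 0.27 without a filter, and 0.41 to 0.51 when a library was left out. That of the ER arm was 0.016 with library totals alone, 0.015 in limma on log2(FPKM + 1), with and without the filter, 0.015 on log2(FPKM + 0.1), and 0.028 to 0.055 when a library was left out. All genes called numbered 1092 in limma without a filter and 1671 to 2543 when a library was left out, with the lowest counts, 1671 and 1712, without anti-Act1 replicate 2 and 1. The 24 genes of the pathway lists called higher became 15, and the 4 called lower became 1, in limma without a filter, and DESeq2 called 2 lower. Leaving out a library gave 1 to 4 lower. The 1 gene of the other ATF4 targets called lower (Cebpb) was lost, giving 0, in DESeq2 and in limma without a filter. Without the filter on low FPKM, limma no longer called Mthfd2 (adjusted p = 0.0764) and called Chac1 (adjusted p = 0.0300).

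Genes near 0 that did not pass the test changed sign. With library totals alone, log2 fold changes were -0.0060 for Dnajc3, -0.012 for Pdia3 and -0.0073 for Canx. In limma they were -0.0036, -0.012 and -0.0069 on log2(FPKM + 1), with and without the filter, and -0.0037, -0.012 and -0.0069 on log2(FPKM + 0.1). When a library was left out they were -0.053 to 0.095 for Dnajc3, -0.0062 to 0.032 for Pdia3, -0.013 to 0.048 for Canx, -0.052 to 0.022 for Pdia4, -0.043 to 0.0045 for Calr, -0.0089 to 0.19 for Sdf2l1, -0.013 to 0.10 for Syvn1, -0.068 to 0.0049 for Sel1l and -0.17 to 0.014 for Shmt2. The cause was not tested. With a library left out, the lone library of that group was assumed to vary like the other group. Depth limits Chac1, Phgdh and Slc7a5, whose highest counts in a library were 24, 31 and 154.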
